A study of Mus musculus with 28 samples.

Results

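The genes described here are targets of the tumour suppressor p53 together with markers of cellular senescence, taken as a list of 34 symbols and read in mouse embryonic fibroblasts that were driven towards cardiomyocytes. A gene was matched by its symbol in the annotation of the array, using probe sets that name 1 gene, and where a gene had several its probe set of highest mean was kept. This gave 30 of the 34 genes, each through 1 probe set, out of 19938 genes named on the array. Cdkn1a, which encodes the cell cycle inhibitor p21, shared its probe set with another annotated gene, so no value is given for it. Bax, Fdxr, Gdf15 and the p53 gene itself were not analysed here. Each of the 30 genes passed the filter on low signal, and none passed it through the transduced groups alone. The signal of 28 genes lay above the array's own median on each of the 28 arrays. Bbc3 and Ddb2 were the exceptions. Ddb2 was above the median on the 3 arrays of untransduced 0F cells and on no other array, so it passed the filter only through the group where it was high, and its lower calls against 0F carry no weight.

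Single-channel arrays measured total RNA at day 21 in 7 groups of fibroblasts. The 3 control samples, 0F, were grown without any transduction and collected at the same day. The source label calls every sample zeocin-selected, but the title, description and protocol give 0F as untreated, and that was followed. The other 6 groups carried lentiviruses for the doxycycline-dependent activator rtTA, for a reporter in which the cardiac troponin T promoter drives a calcium sensor and zeocin resistance, and for sets of tetO-driven transcription factors. GMT (5 samples) received GATA4, MEF2C and TBX5. NGMT (6 samples) received NKX2.5 as well, HGMT (3 samples) received Hand2 beside GMT, and HNGMT (3 samples) received both. In DMT (4 samples) MYOCD took the place of GATA4, and DMNT (4 samples) held MYOCD, MEF2C, NKX2.5 and TBX5. All 6 were switched to a reprogramming medium with doxycycline at 2 µg/mL and then selected with zeocin at 300 µg/mL for the last 7 days. A difference from 0F therefore spans transduction, medium, doxycycline, zeocin and the factors together, and these cannot be told apart. Only cells in which the troponin T promoter was active kept the resistance, so each transduced sample is a selected population. Samples are separate biological replicates, per the labels.

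p53 is a transcription factor that is kept low by Mdm2 and Mdm4 and accumulates when DNA is broken or cells are stressed. It binds paired copies of a short DNA element near its target genes, which halt the cell cycle, repair DNA, adjust metabolism or start apoptosis, and one of which is Mdm2, so that p53 raises its own inhibitor. Senescence is a lasting arrest of division held by p21 and by the Ink4 proteins of the Cdkn2a and Cdkn2b genes. Zeocin is an antibiotic of the bleomycin family, which cuts DNA.

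The p53 half-site, a 10-base element, was looked for in the promoters of the listed genes, since it is the letter pattern that p53 targets are known for. RefSeq windows of 300 bases (250 before and 50 after a transcript's start, assembly GRCm38.p6) were found for 22 of the 30 measured genes, all but Xpc, Zmat3, Perp, Ddb2, Tnfrsf10b, Pmaip1, Trp53inp1 and Rrm2b. The element reads the same on both strands and overlaps no other pattern searched. It occurred in 8 of these 22 genes (36.4%), against 9.55% of all 27025 genes with a window. Counted by window, 9 of 34 held it (26.5%), against 8.36% of all 32851 windows. No measured gene had a pair of half-sites with at most 13 bases between them, which 0.074% of all genes had. The matches follow, 1 line each, with the half-site in capitals, because they are the part of these promoters that resembles the p53 element. Each line gives 30 bases in the direction of the gene.
Mdm2, chr10:117710925-117710954, minus strand: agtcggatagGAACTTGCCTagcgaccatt
Ccng1, chr11:40755452-40755481, minus strand: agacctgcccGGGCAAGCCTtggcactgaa
Gadd45a, chr6:67037428-67037457, minus strand: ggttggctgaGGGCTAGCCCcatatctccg
Ei24, chr9:36797325-36797354, minus strand: cgtgcggcccGGGCATGCCCagtgtgggcg
Aen, chr7:78895927-78895956, plus strand: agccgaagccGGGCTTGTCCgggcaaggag
Polk, chr13:96519399-96519428, minus strand: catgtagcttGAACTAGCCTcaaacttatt
Rps27l (first), chr9:66946193-66946222, plus strand: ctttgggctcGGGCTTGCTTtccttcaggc
Rps27l (second), chr9:66946296-66946325, plus strand: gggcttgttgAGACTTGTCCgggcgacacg
Sesn1, chr10:41887256-41887285, plus strand: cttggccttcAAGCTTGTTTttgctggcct
The half-sites begin at position -186 from the start in Mdm2, -40 in Gadd45a and -10 in Ei24. In Ccng1 (-185), Polk (-231), Rps27l (-210 and -107) and Sesn1 (-173) the start is not the outermost one annotated, and in Aen the element begins at position 11 from 1 annotated start and -121 from another. A match is a run of letters and not a bound site, and no binding was measured in these samples. Bases outside these windows were not searched, so elements that lie elsewhere in a gene, Mdm2 included, would be missed. The 8 genes with a half-site had a median log2 difference of 0.63 between GMT and 0F, and the 14 without had 0.76. Their ranges overlapped, from -1.30 (Sesn1) to 1.55 (Mdm2) with the element and from -0.03 (Bbc3) to 1.75 (Eda2r) without it.

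For Mdm2, the feedback gene whose change is described below, the 250 bases before the start are given whole (chr10:117710759-117711008, minus strand), with the half-site in capitals, to show where in the promoter it lies.
Mdm2 promoter: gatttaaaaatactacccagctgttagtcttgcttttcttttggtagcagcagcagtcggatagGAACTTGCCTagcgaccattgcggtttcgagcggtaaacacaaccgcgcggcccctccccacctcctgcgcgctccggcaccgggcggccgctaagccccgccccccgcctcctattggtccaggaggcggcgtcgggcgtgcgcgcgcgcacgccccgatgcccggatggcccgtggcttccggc

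The deposited log2 signals fell into 3 array sets that differ in their overall distribution. Set 1 held the 3 0F arrays, 2 GMT and 3 NGMT. Set 2 held 3 arrays each of GMT, NGMT, HGMT, HNGMT and DMT, and set 3 held 1 DMT and the 4 DMNT arrays. Only GMT and NGMT can be set directly against 0F on arrays of the same set. The other 4 combinations reach 0F through GMT and NGMT, which were run in both sets 1 and 2, and DMNT in addition through the 1 DMT array of set 3. Within GMT and NGMT, after quantile normalization, 24 of the 30 listed genes differed between sets 2 and 1 (17 higher and 7 lower in set 2, 72.2% of all genes called), with a median of 0.21 and a range of -0.40 to 0.75 on the log2 scale. Differences given below are from 1 limma fit over 28 arrays and 12211 genes with the array set as a term. A gene is called when its Benjamini-Hochberg adjusted p is under 0.05. The delivered mouse genes checked the labels, with Hand2 2.71 higher on the log2 scale in HGMT than in GMT and Myocd 3.63 higher in DMT than in GMT. The fibroblast markers Col1a1 and Pdgfra were above the array median on each array, and Tnnt2, the troponin T gene, read 6.72 to 7.04 in 0F against 11.96 to 12.10 on the GMT arrays of set 1.

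Most of the p53 targets and senescence genes were higher in GMT cells than in 0F cells. Perp, a desmosomal protein of the p53 apoptosis programme, stood out at 15.1-fold, and Eda2r, Btg2, Psrc1, Mdm2, Tnfrsf10b and Plk2 were 2.77-fold to 3.36-fold higher. Of the 30 genes, 26 rose in GMT, where 35.9% of all genes tested were called higher, and 2 fell, where 24.1% of all genes were called lower. The 2 were Sesn1 and Ddb2, and Ddb2 had to be lower by the way it passed the filter. Bbc3 and Xpc were not called. The rise was at least 2-fold for 12 of the 30 genes, against 5.95% of all genes. The median log2 difference was 0.72 over the listed genes and 0.046 over all genes tested. In NGMT, 25 genes rose (36.6% of all genes called higher) and the same number as in GMT, 2, fell (24.2% lower), with a median of 0.69 against 0.043, and 12 were at least 2-fold higher (5.62%). GMT and NGMT are set against the same 3 0F arrays, so the counts are not independent of each other. On the arrays of set 1, 26 genes were higher on both GMT arrays than on any 0F array (44.1% of all genes) and 2 were lower (29.7%). For NGMT these counts were 25 (41.2%) and 2 (27.9%). Because RNA came from whole cultures, a lower signal from fewer cells of a type and from less RNA per cell cannot be told apart.

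**Figure D1:**
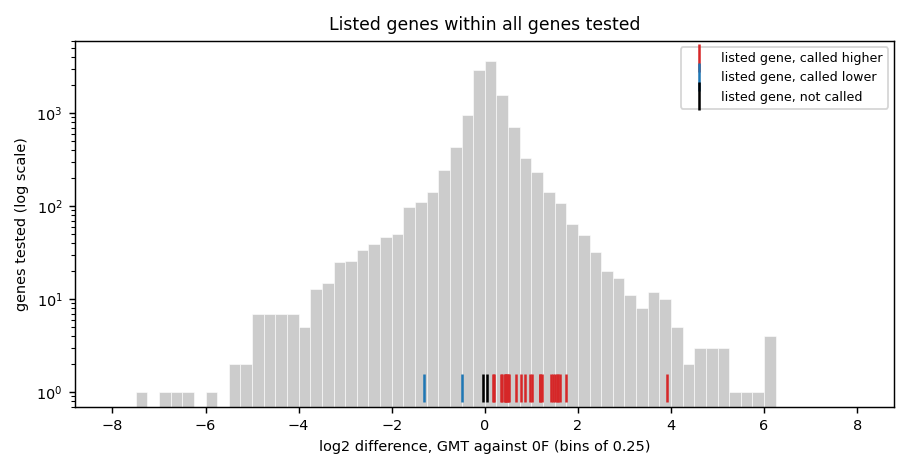
Grey bars show how many of the 12211 genes tested fell in each bin of the log2 difference between GMT and 0F (x axis), on a log scale of genes (y axis), and coloured ticks mark the 30 listed genes. The 26 genes called higher lie to the right of 0, with Perp apart at 3.92, and the 2 called lower are Sesn1 and Ddb2.

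Among the genes of cell cycle arrest, all 8 measured rose in GMT and in NGMT, with medians of 1.02 and 1.05 on the log2 scale. Of all genes tested, 35.9% were called higher in GMT and 36.6% in NGMT. Btg2 encodes an antiproliferative partner of the mRNA deadenylase complex, and it read 9.13, 8.98 and 9.37 on the 0F arrays, 10.77 and 10.86 on the GMT arrays of set 1, and 10.75, 10.76 and 10.68 on the NGMT arrays of set 1. No transduced array came within 1 log2 unit of the highest 0F array. Its difference was 1.62 (SE 0.08, adjusted p = 4.65e-15) in GMT and 1.59 in NGMT. Psrc1, whose product binds microtubules, read 9.00, 8.95 and 9.07 in 0F against 10.62 and 10.53 in GMT and 10.62, 10.57 and 10.48 in NGMT, a difference of 1.56 (SE 0.04) for GMT. Plk2, a polo-like kinase of the stress response, read 8.68, 8.70 and 8.71 in 0F, while both GMT arrays of set 1 stood at 10.16, with NGMT at 10.15, 10.27 and 10.27. Its difference was 1.47 (SE 0.06) in GMT and 1.53 in NGMT. Zmat3, an RNA-binding zinc finger protein, was 1.19 higher in GMT (SE 0.08) and 1.17 higher in NGMT. Gadd45a, a stress protein that inhibits the mitotic kinase Cdk1, was 0.78 higher in GMT (SE 0.12), the widest error among the 30 genes. Ccng1, cyclin G1, changed little in size but evenly, from 12.36, 12.40 and 12.39 in 0F to 12.89 and 12.88 in GMT and 12.89, 12.85 and 12.93 in NGMT, a difference of 0.49 (SE 0.02, adjusted p = 1.36e-14) for GMT.

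The senescence genes of the Ink4 locus rose too, by less than the leading p53 targets. Cdkn2a, which encodes the Cdk4 and Cdk6 inhibitor p16 and, in another reading frame, the Mdm2 inhibitor p19Arf, read 8.62, 8.65 and 8.77 in 0F. The GMT arrays of set 1 read 9.24 and 9.33 and the NGMT arrays 9.47, 9.31 and 9.42, without overlap with 0F. The difference was 0.66 (SE 0.09, adjusted p = 6.02e-07) in GMT and 0.68 in NGMT. The probe set is annotated to the gene, so the 2 products are not separated here. Cdkn2b, which encodes the related inhibitor p15, read 9.25, 9.21 and 9.31 in 0F, 10.04 on both GMT arrays, and 10.30, 10.12 and 10.27 in NGMT. Its difference was 0.86 (SE 0.07) in GMT and 0.93 in NGMT, again with no overlap. Of all genes, 44.1% were higher on every GMT array of set 1 than on any 0F array, and 41.2% on every NGMT array.

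**Figure D2:**
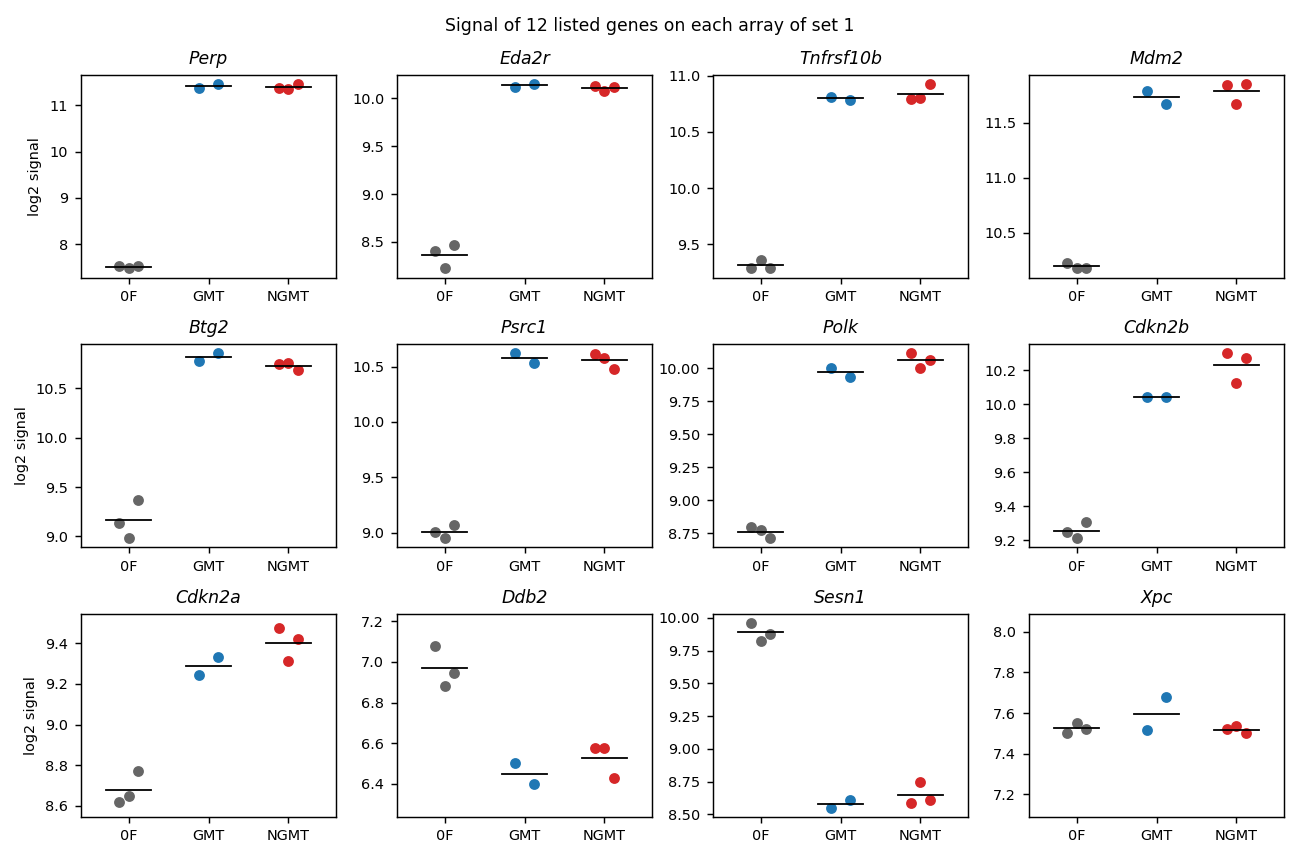
Each panel plots the log2 signal (y axis) of 1 listed gene on the 8 arrays of set 1, in 0F (3 arrays), GMT (2) and NGMT (3); points are arrays and black lines group means, and each panel has its own scale. In the top 2 rows and for Cdkn2a, all 5 transduced arrays lie above the 3 0F arrays, for Ddb2 and Sesn1 all lie below, and for Xpc the groups overlap.

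Of the 11 measured genes of apoptosis and death receptors, 10 rose in GMT (35.9% of all genes) and 10 in NGMT (36.6%). Bbc3 was the exception in both. Perp read 7.52, 7.47 and 7.53 in 0F, 11.38 and 11.47 on the GMT arrays of set 1, and 11.38, 11.36 and 11.47 on the NGMT arrays. The lowest transduced array was over 3 log2 units above the highest control, and the difference was 3.92 (SE 0.06, adjusted p = 9.12e-25) in GMT and 3.89 in NGMT. Perp is also a component of desmosomes in epithelia. The mesothelial and epithelial marker list moved with it in set 1, where the summed signal of its 12 genes was 935.7 to 1054 in 0F, 9974 to 10650 in GMT and 11620 to 12010 in NGMT. In set 2 the same sum was 2231 to 2483 in GMT and 1962 to 2372 in NGMT, while Perp read 11.74 to 12.03 and 11.78 to 11.91. The part of that list in the Perp result was not tested.

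Receptors of the tumour necrosis factor family were among the genes that rose most. Eda2r, the receptor for the A2 form of ectodysplasin, went from 8.40, 8.22 and 8.47 in 0F to 10.12 and 10.15 in GMT and 10.13, 10.07 and 10.12 in NGMT. Its difference was 1.75 (SE 0.05, adjusted p = 1.57e-19) in GMT and 1.76 in NGMT. Tnfrsf10b, the mouse receptor for the death ligand TRAIL, went from 9.28, 9.36 and 9.29 to 10.81 and 10.79 in GMT and 10.79, 10.80 and 10.93 in NGMT. That is 1.50 higher in GMT (SE 0.05) and 1.52 in NGMT. Fas, the receptor for Fas ligand, went from 8.68, 8.48 and 8.53 to 9.77 and 9.84 in GMT and 9.69, 9.61 and 9.70 in NGMT, or 1.20 higher in GMT (SE 0.08) and 1.13 in NGMT. None of these 3 receptors overlapped between 0F and the transduced arrays of set 1. Of all genes, 44.1% were higher on every GMT array of set 1 than on any 0F array, and 41.2% on every NGMT array.

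The BH3-only genes, whose proteins trigger apoptosis by blocking Bcl2-family guardians, differed from each other. Pmaip1, which encodes Noxa, read 7.04, 7.26 and 6.86 in 0F and 8.40 and 8.51 in GMT, 1.42 higher (SE 0.08, adjusted p = 1.23e-13), and 1.47 higher in NGMT. Bbc3, which encodes Puma, read 6.63, 6.63 and 6.71 in 0F, 6.57 and 6.66 in GMT and 6.63, 6.63 and 6.56 in NGMT. Those groups overlap and lie just below the array medians on all but 1 array, and the 95% interval of the GMT difference was -0.13 to 0.07 (adjusted p = 0.639). Bbc3 was above the median on 16 of 28 arrays, 1 of them 0F, so its level in set 1 is close to the bottom of what was kept. Downstream of both, Apaf1, the core of the apoptosome, was 0.47 higher in GMT (SE 0.05). Aen, an apoptosis-enhancing nuclease, was 1.01 higher (SE 0.06), and Trp53inp1, a stress protein that promotes p53 phosphorylation and autophagy, was 0.52 higher (SE 0.04). Phlda3, which restrains Akt, was 0.37 higher and Ei24, a protein of the endoplasmic reticulum, 0.17 higher.

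Both measured feedback genes rose in GMT and NGMT, where 35.9% and 36.6% of all genes were called higher. Mdm2, the ubiquitin ligase that marks p53 for destruction, read 10.23, 10.18 and 10.19 in 0F, 11.79 and 11.67 in GMT, and 11.84, 11.67 and 11.85 in NGMT. The groups were far apart relative to their spread, with a difference of 1.55 (SE 0.06, adjusted p = 3.65e-17) in GMT and 1.58 in NGMT. Mdm4, its partner, which masks the activation domain of p53, was 0.43 higher in GMT (SE 0.07) and 0.46 in NGMT. On the single arrays Mdm4 read 9.70, 9.62 and 9.36 in 0F and 10.11 and 9.87 in GMT, a narrower gap.

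Genes of DNA repair and nucleotide supply did not move as a group. Polk, a DNA polymerase that copies past damaged bases, rose from 8.80, 8.78 and 8.72 in 0F to 10.00 and 9.94 in GMT and 10.11, 10.00 and 10.06 in NGMT. That is a difference of 1.23 (SE 0.05, adjusted p = 1.37e-16) in GMT and 1.28 in NGMT. Ddb2, which recognises ultraviolet damage for nucleotide excision repair, read 7.08, 6.88 and 6.95 in 0F, above the array medians there and on no other array, against 6.50 and 6.40 in GMT and 6.58, 6.58 and 6.43 in NGMT, and no size is given for a gene below the median in one group. Xpc, which acts beside Ddb2, read 7.50, 7.55 and 7.52 in 0F, 7.52 and 7.68 in GMT and 7.52, 7.53 and 7.50 in NGMT, with a 95% interval of -0.04 to 0.14 for GMT (adjusted p = 0.349). Rrm2b, a p53-induced subunit of ribonucleotide reductase, was called 0.19 higher in GMT (adjusted p = 0.0168) and was 0.12 higher in NGMT without being called. With set 1 alone the adjusted p for Rrm2b in GMT was 0.0512, and by the direct difference over all arrays its sign turned, as given with the other dependences on processing.

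In the group of metabolic and other targets, 4 of 5 genes rose and 1 fell in GMT and in NGMT. Of all genes, 35.9% were called higher and 24.1% lower in GMT, and 36.6% and 24.2% in NGMT. Sesn1 and Sesn2 encode sestrins, stress proteins that hold back the growth kinase mTORC1, and they went in opposite directions. Sesn1 fell by 1.30 on the log2 scale in GMT (SE 0.09, adjusted p = 3.81e-12), from 9.96, 9.82 and 9.88 in 0F to 8.55 and 8.61 in GMT and 8.59, 8.75 and 8.61 in NGMT. Sesn2 rose by 0.44 (SE 0.07), from 9.23, 9.13 and 9.23 to 9.58 and 9.66 in GMT and 9.67, 9.70 and 9.64 in NGMT. Neither overlapped between 0F and the transduced arrays of set 1. Of all genes there, 44.1% were higher and 29.7% lower on every GMT array than on any 0F array. For NGMT these shares were 41.2% and 27.9%. Dgka, diacylglycerol kinase alpha, was 0.96 higher in GMT (SE 0.08). Rps27l, a ribosomal protein relative, was 0.45 higher, and Ephx1, the microsomal epoxide hydrolase, was 0.36 higher.

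The other 4 combinations were set against the same 0F arrays through the array sets. Of the 30 genes, 25 rose and 2 fell in HGMT (29.9% and 21.2% of all genes), and 24 rose and 2 fell in HNGMT (26.5% and 23.2%). In DMT 24 rose and 2 fell (34.6% and 21.8%), and in DMNT 23 rose and 2 fell (26.4% and 15% of all genes). The medians of the listed genes were 0.61, 0.64, 0.78 and 0.68 on the log2 scale, and those of all genes tested 0.041, 0.0091, 0.059 and 0.068. At least 2-fold higher were 13, 12, 11 and 12 of the listed genes, against 5.5%, 4.95%, 6.64% and 6.7% of all genes. Sesn1 was called lower in each of the 6 combinations, and the other gene called lower was Ddb2, which passed the filter through 0F alone. The call on Ddb2 was lost in HGMT and in DMNT without 0F replicate 1, in HGMT also without HGMT replicate 2, and in DMNT also without GMT replicate 2 or DMT replicate 1. Perp lay between 3.74 in HNGMT and 3.98 in DMT, Mdm2 between 1.47 in HNGMT and 1.70 in DMNT, and Ccng1 between 0.48 in HGMT and 0.52 in NGMT. Gadd45a had the widest range, from 0.37 in HNGMT, where it was not called, to 0.99 in DMT. Without the set term the HNGMT difference was called, at 0.70. Mdm4 was not called in DMT (0.16) or DMNT (0.23), and Sesn2 was not called in DMNT (0.31), while without the set term these were called at 0.62, 0.48 and 0.72. Rrm2b was called in GMT and in none of the other 5 combinations.

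**Figure D3:**
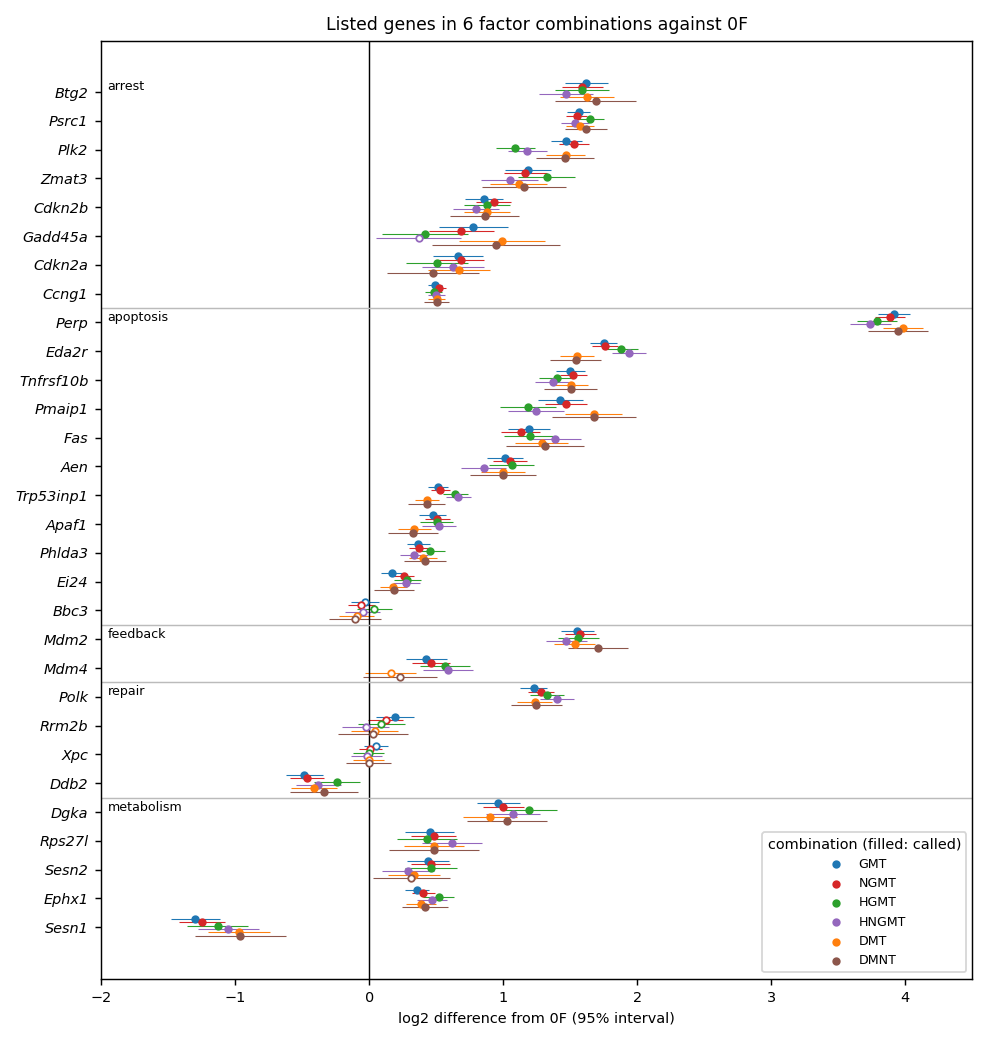
Points give the log2 difference from 0F (x axis) of each of the 30 listed genes (y axis, grouped by role) in 6 factor combinations, from 1 fit with the array set as a term, with 95% intervals; filled points were called. Perp lies near 4 in all 6, Sesn1 and Ddb2 lie below 0, and Bbc3 and Xpc lie on the zero line with open points.

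The size of several differences from 0F rests on how array sets 1 and 2 are joined. Apaf1 read 9.30 and 9.19 on the GMT arrays of set 1 but 10.07, 10.08 and 10.09 on those of set 2. Without the set term, after quantile normalization, its difference from 0F in GMT was 0.81 in place of 0.47. Bbc3 read 7.47, 7.50 and 7.49 on the GMT arrays of set 2, where set 1 gave 6.57 and 6.66. Its direct difference was called at 0.69 in HGMT, 0.63 in HNGMT and 0.47 in DMT, while the fit with the set term gave values around 0. Xpc was called lower by the direct difference in HGMT, HNGMT, DMT and DMNT, at -0.48, -0.48, -0.43 and -0.44. Of the called genes, 5 in GMT, 2 in NGMT, 9 in HGMT, 9 in HNGMT, 6 in DMT and 6 in DMNT had a direct difference over 1.5 times larger or smaller. Apaf1 was among them in each combination, and Ei24 and Trp53inp1 in all but NGMT. Perp, Mdm2, Eda2r, Btg2, Psrc1, Plk2 and Sesn1 were among them in none. The senescence gene Cdkn2a was among them in HGMT, HNGMT and DMNT. Its direct difference in HGMT was 0.25 in place of 0.51 and was not called. With quantile normalization and the set term, Cdkn2a was 0.39 higher in DMNT and was not called. For DMNT there is a further limit. In set 3, 70.4% of genes had the same deposited value on at least 2 of the 5 arrays, against 25.1% in set 1 and 23.1% in set 2, and this held for 25 of the 30 listed genes. Ccng1 read 13.61 and Eda2r 10.70 on each of the 4 DMNT arrays, equal to the last deposited digit, so the spread between DMNT arrays is smaller than separate measurements gave in the other sets (median SD within groups 0.032 over all genes, against 0.056 and 0.069).

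**Figure D4:**
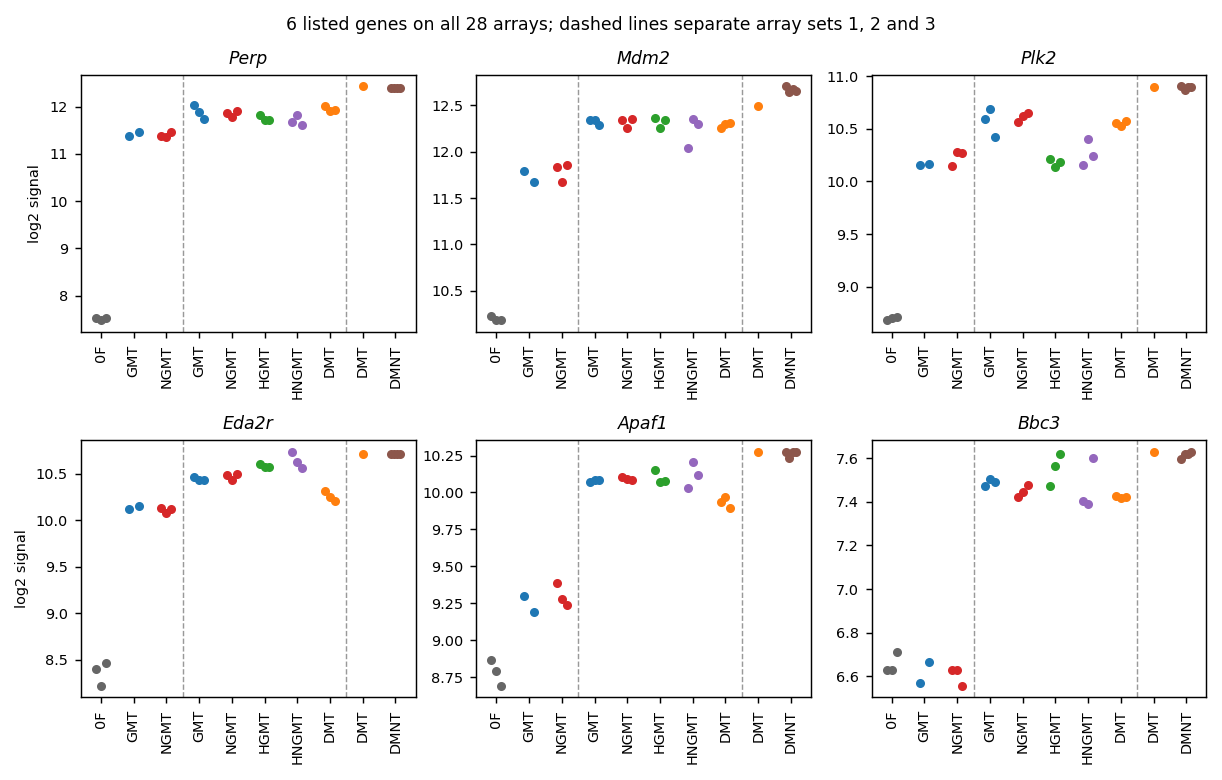
Log2 signal (y axis) of 6 listed genes on all 28 arrays, with columns for each group within each array set and dashed lines between sets 1, 2 and 3; each point is 1 array. Perp, Mdm2, Plk2 and Eda2r separate 0F from every transduced array, while the largest step for Bbc3 lies between the GMT and NGMT arrays of set 1 and those of set 2.

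Adding NKX2.5 left no listed gene called. In these comparisons at most 1.63% of all genes were called, so counts of 0 say nothing particular about the listed ones. Of the 30 genes, 0 were called by limma between NGMT and GMT, where 1.63% of all genes were called, and 1 gene, Ei24, had an unadjusted p under 0.05. The largest difference of a listed gene was -0.090 on the log2 scale, for Gadd45a, and the 95% intervals reached a median of 0.095 to either side. Between HNGMT and HGMT 0 of 30 were called (0.622% of all genes) with 8 at an unadjusted p under 0.05, the largest being Zmat3, lower by 0.28. Leaving out HNGMT replicate 3 gave 8 called genes in this comparison and leaving out replicate 2 gave 5. The share of all genes called in those refits is not given here, so these counts say nothing particular about the listed ones. Macrophage RNA differed between those arrays, with Lyz2, the macrophage lysozyme, at 11.03, 10.50 and 7.66 in HNGMT replicates 1, 2 and 3, and its part in these values was not tested. Between DMNT and DMT 0 of 30 were called (0.0737% of all genes, 1 listed gene at an unadjusted p under 0.05). That comparison has 1 DMT array, which equals at least 1 DMNT array exactly for 14 of the 30 genes and for 36.4% of all genes.

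Adding Hand2 changed a minority of the listed genes, by small amounts. Between HGMT and GMT 9 of 30 were called, 6 higher (12.2% of all genes) and 3 lower (14.5%), and between HNGMT and NGMT 10 were called, 4 higher (8.73%) and 6 lower (22.9%). The total shares, 26.7% and 31.7% of all genes, are close to those of the listed genes. Plk2 moved most. In set 2 it read 10.59, 10.68 and 10.42 in GMT against 10.21, 10.14 and 10.19 in HGMT, and 10.56, 10.62 and 10.65 in NGMT against 10.15, 10.40 and 10.25 in HNGMT, without overlap in either pair. It fell by 0.38 with Hand2 added to GMT (SE 0.05, adjusted p = 6.34e-06) and by 0.35 with Hand2 added to NGMT (adjusted p = 2.51e-05).

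Gadd45a also fell, by 0.36 in HGMT (adjusted p = 0.0243) and 0.32 in HNGMT (adjusted p = 0.0404), but its arrays overlapped in the first pair. They read 9.22, 9.26 and 9.89 in GMT and 9.11, 8.87 and 9.24 in HGMT. Pmaip1 fell by 0.24 and 0.23, and its arrays did not overlap, at 8.59, 8.52 and 8.40 in GMT against 8.36, 8.21 and 8.16 in HGMT. On the other side, Trp53inp1 rose by 0.13 in each comparison, from 12.47, 12.50 and 12.46 in GMT to 12.67, 12.56 and 12.58 in HGMT. Eda2r rose by 0.13 in HGMT and 0.18 in HNGMT, with HNGMT at 10.74, 10.62 and 10.56 and NGMT at 10.49, 10.43 and 10.50. Dgka, Ephx1 and Ei24 were called higher in HGMT, by 0.23, 0.16 and 0.12, as was Ddb2, which was below the array median in both groups. In HNGMT Fas and Polk rose by 0.26 and 0.12, and Aen, Perp and Tnfrsf10b fell by 0.20, 0.15 and 0.15. Without the set term the sign for Aen turned, to 0.074, and it was not called. For no listed gene did the effect of Hand2 differ between cells with and without NKX2.5 by the interaction test in limma, in which 0 were called and 4 had an unadjusted p under 0.05. The same test called 0 of all 12211 genes, and 2044 had an unadjusted p under 0.05, so these counts say nothing particular about the listed ones.

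These Hand2 calls depend on which arrays are fitted. With the arrays of set 2 alone, 5 genes were called in HGMT (Plk2, Pmaip1, Trp53inp1, Ddb2 and Ephx1) and 3 in HNGMT (Plk2, Eda2r and Trp53inp1). Over all genes, these fits called 17% in HGMT and 17.6% in HNGMT. Leaving out HGMT replicate 1 gave 5 and leaving out HNGMT replicate 1 gave 4. Adipocyte markers moved with the same comparison, with all 12 called higher in HGMT than in GMT and a summed signal of 9928 to 12430 against 4084 to 5643 in set 2. Of 15 cell division genes tested 9 were called higher. Between HNGMT and NGMT, 9 of 12 adipocyte genes were higher (list median 0.45), 9 of 14 macrophage genes were higher (0.50) and 7 of 15 cell division genes were higher. The part of these lists in the Hand2 values was not tested.

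MYOCD in place of GATA4 changed 5 of the 30 genes, 2 higher (9.84% of all genes) and 3 lower (8.75%), a share close to the 18.6% of all genes called in either direction. Sesn1, the sestrin that was low in the transduced groups, was 0.33 higher in DMT than in GMT (SE 0.08, adjusted p = 0.006), at 9.28, 9.18 and 8.86 against 8.70, 8.73 and 8.94 in set 2, where 1 DMT array overlapped. Pmaip1 was 0.25 higher (adjusted p = 0.0224). Mdm4 was lower, falling by 0.27 (adjusted p = 0.00592), at 10.52, 10.51 and 10.31 against 10.69, 10.74 and 10.70 without overlap. Eda2r fell by 0.20 (adjusted p = 0.00274), with 10.31, 10.24 and 10.20 against 10.46, 10.43 and 10.43. Apaf1 fell by 0.14 (adjusted p = 0.0392), at 9.94, 9.97 and 9.90 against 10.07, 10.08 and 10.09, and without the set term its sign turned, to 0.095, with no call. With set 2 alone only Eda2r and Mdm4 were called, where 12.9% of all genes were called. Leaving out DMT replicate 3 gave 2 called genes and leaving out DMT replicate 1 gave 3. By the interaction test with NKX2.5, 0 listed genes were called and 0 had an unadjusted p under 0.05, where 1 of all 12211 genes was called (0.00819%), and the test rests on the single DMT array of set 3. Markers differed between DMT and GMT too, with 8 of 12 adipocyte genes lower (list median -0.52, summed signal 2524 to 2960 against 4084 to 5643 in set 2). Of 18 sarcomere genes 8 were higher and 6 lower, with sums of 28990 to 33550 against 22690 to 24290. The part of these lists in the DMT values was not tested.

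**Figure D5:**
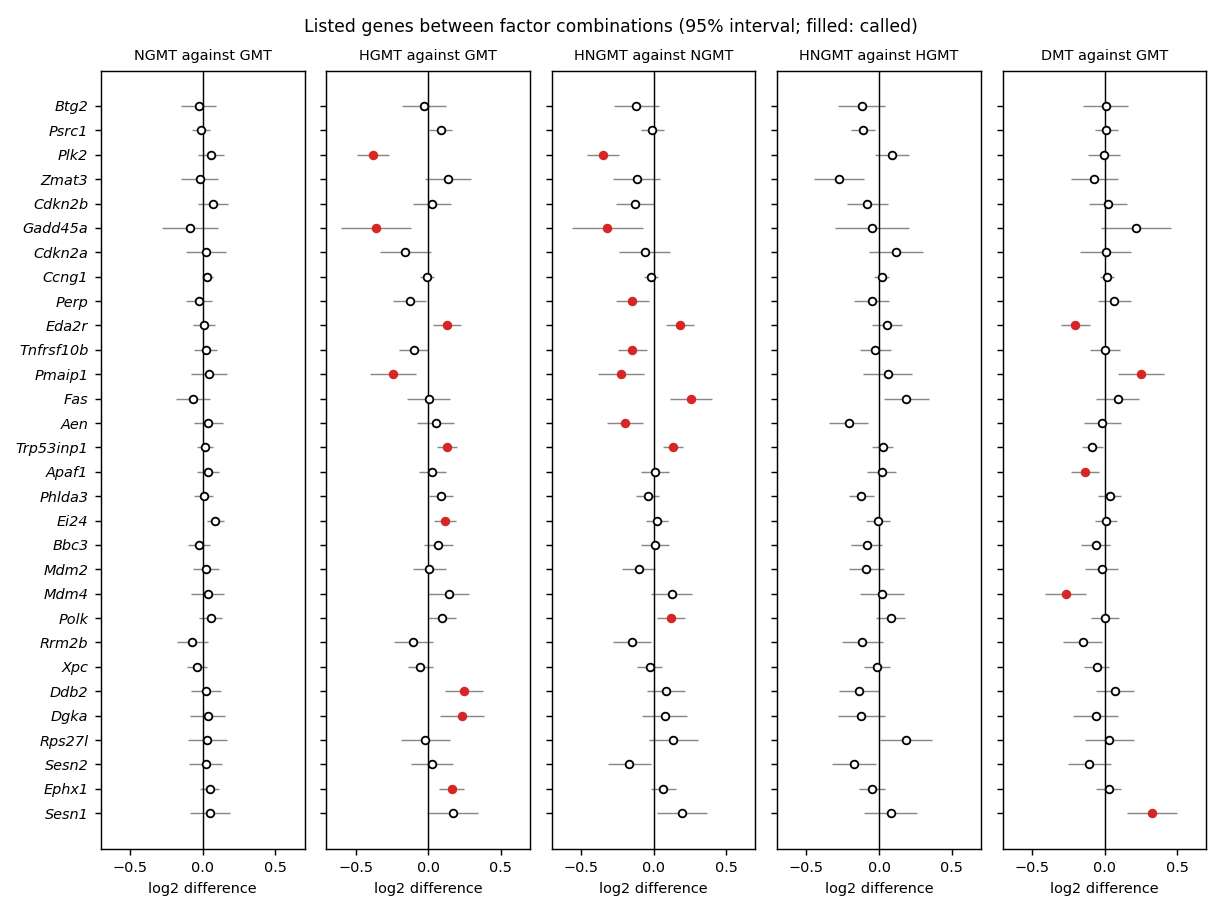
Log2 differences (x axis) with 95% intervals of the 30 listed genes (y axis) for 5 comparisons between factor combinations, with called genes filled in red. No gene is filled for the comparisons that add NKX2.5, and Plk2 is the furthest from 0 for both that add Hand2.

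Other genes of the pathway were read from further lists. Of 39 other p53 targets tested, 24 rose and 10 fell in GMT against 0F, with a median of 0.37. Rgs16 was 1.50 higher. Lif, a cytokine gene that p53 induces, and Ckap2 were called higher but were below the array median on each 0F array, so no size is given, and this held for 4 of the 24 that rose. Of 27 genes of p53 and damage signalling, such as sensors and kinases that act before p53, 14 rose and 5 fell, with a median of 0.12 and the largest values at 0.43 for Topbp1, 0.39 for Mdc1 and 0.39 for Hipk2. Of 22 other CDK inhibitors, cyclins and pocket proteins 7 rose and 8 fell, among them Cdkn1c, the inhibitor p57, which fell by 1.31, and Cdk6 and Ccnd1, which were 1.25 and 1.21 higher. Of 30 cell division genes named on the array, only 15 passed the filter on low signal and were tested. Of these 15, 10 rose and 1 fell in GMT. Among them were the mitotic kinase gene Cdk1, 1.14 higher, and the centromere histone gene Cenpa, 1.25 higher. Of 28 genes of the senescence secretory phenotype, secreted factors that arrested cells are known for, 20 rose and 3 fell, with a median of 1.45. Mmp13 was 3.92 higher. Il6 and Ccl8 were called higher from below the array median in 0F, as were 5 of the 20 that rose in all, and the list medians include such genes. In the damage signalling, CDK inhibitor and cell division lists 1 gene each rose from below the median. These shares stand beside 35.9% of all genes higher and 24.1% lower in the same comparison.

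Markers of other cells moved between 0F and GMT as well. All 12 adipocyte genes fell, with a summed signal of 43880 to 45770 in 0F and 2381 to 2651 on the GMT arrays of set 1. Of 14 macrophage genes tested 13 fell, and the sum over all 17 named was 8207 to 12230 against 1714 to 1897. For 16 fibroblast genes the count was 13 lower and 3 higher, with sums of 65490 to 66760 against 42310 to 44720. Cardiac sarcomere genes were higher for 16 of 18, with sums of 3358 to 3509 against 24580 to 27100. Of the 10 mesothelial and epithelial genes tested, 8 were higher. Of these, 8 sarcomere and 4 mesothelial and epithelial genes were below the array median throughout 0F or GMT, and so were 9 of the macrophage genes that fell and 2 of the adipocyte genes. Adipoq and Lyz2, defining genes of adipocytes and macrophages, were below the array median on each set 1 array of GMT and NGMT. In set 2 Adipoq was above it on all 3 arrays of GMT, NGMT, HGMT and HNGMT, and Lyz2 on 1 NGMT array and all 3 HNGMT arrays. The part of these cells in the values of the p53 targets and senescence genes was not tested.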

How the data were processed

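The deposited table holds the authors' log2 signal per probe set for 28 single-channel arrays, 35556 probe sets with values from 3.76 to 14.47. MAS5 is the only tool named, per the submitters' processing notes, with version, scaling and genome build not given in the sources used here. Probe sets naming 1 symbol (21789 of 35556; 1621 named several, 12146 none) were kept and, for a gene with several, that of highest mean. Genes above the array median on at least 3 arrays were tested (12211 of 19938). Array sets were found from the distributions of the values, not from the labels. limma 3.58.1 (R 4.3.3) was fitted once over the 28 arrays, with the group and the array set in the design (lmFit, eBayes with trend, 19 residual degrees of freedom), with Benjamini-Hochberg adjustment over 12211 genes in each of 12 comparisons and 2 interactions. Intervals are 95%. The number of arrays limits precision. A direct difference is taken after quantile normalization without the set term. Genes in the text are the listed members plus, for each further list, the 3 called genes of largest difference in GMT against 0F, and defining markers. The members and lists were chosen with earlier results of these data known. The fits were tested on simulated data. Promoter sequences are RefSeq's, assembly GRCm38.p6. Alternatives tried were quantile normalization with and without the set term, no filter, the mean of a gene's probe sets, a replicate block, each array set alone and leaving out each array.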

Additional observations from a re-analysis of the deposited data

Results flagged for a closer look

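Single arrays far from the rest were looked for in GMT, NGMT and DMNT, gene by gene. DMT, which also has 4 arrays, was not searched. In 8 of the 88 groups of 4 to 6 arrays whose values were not all equal, 1 array lay far from the rest. The measure was the gap to its nearest neighbour over the whole range of the group, after removal of the array set term. About 1 in 20 groups, or 4.4, would be marked by chance. In DMNT, replicate 1 for Gadd45a (ratio 1, log2 signal on the scale of set 1 9.09 against 9.05) and replicate 4 for Perp (1, 11.46 against 11.45), Ddb2 (1, 6.61 against 6.64) and Xpc (1, 7.53 against 7.52) stood apart from 3 arrays that hold one and the same deposited value, so the gaps are small and the ratio is set by the ties. Also in DMNT, replicate 2 was low for Apaf1 (0.896, 9.08 against 9.12 to 9.13) and replicate 3 was high for Ephx1 (0.868, 12.09 against 12.01 for the nearest). In NGMT, replicate 1 was high for Apaf1 (0.632, 9.39 against 9.24 to 9.29) and replicate 2 was low for Fas (0.687, 9.61 against 9.69 to 9.73).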

How the results depend on the processing

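The 180 differences of the listed genes from 0F were refitted 5970 times. In 5903 refits the call stayed the same, and in 4 a gene that either fit called changed sign. The 24 called differences between combinations were refitted 816 times and lost the call in 124. Changes of sign were counted only where either fit called the gene. All that were counted arose without the set term after quantile normalization. There Rrm2b was -0.043 in GMT and -0.29 in HGMT against 0F, and Bbc3 was 0.63 in HNGMT and 0.47 in DMT. Aen was 0.074 in HNGMT against NGMT and Apaf1 0.095 in DMT against GMT. The same setting called 4 genes lower in HGMT and 4 in HNGMT against 0F, and 2 in DMT against GMT. Same-numbered replicates were not paired, since 7 of 21 pairs within a set had a correlation over 0.1 (range -0.26 to 0.41). With a replicate block 26 genes were higher and 2 lower in GMT against 0F, and 25 and 2 in NGMT. In HGMT 24 were higher and 1 lower, and in HNGMT 24 and 2. In DMT 22 were higher in place of 24, and in DMNT 19 in place of 23, with 1 lower in DMNT. Between combinations the block called 5 in HGMT against GMT, 2 in HNGMT against NGMT and 3 in DMT against GMT. It called Gadd45a at 0.64 in HNGMT against 0F. Quantile normalization with the set term gave 21 higher in DMNT against 0F. Set 2 alone called 5 in HGMT against GMT, 3 in HNGMT against NGMT and 2 in DMT against GMT, and set 3 alone called 1, Perp, in DMNT against DMT. Leaving out 1 array at a time, members higher against 0F were 25 to 26 in GMT, 25 to 26 in NGMT, 24 to 25 in HGMT, 24 to 25 in HNGMT, 24 to 25 in DMT and 22 to 24 in DMNT. Members lower were 1 to 2 in HGMT (1 without 0F replicate 1 or HGMT replicate 2) and 1 to 2 in DMNT (1 without 0F replicate 1, GMT replicate 2 or DMT replicate 1), where the call on Ddb2 is lost, and 2 elsewhere. Called genes were 5 to 13 in HGMT against GMT, 4 to 13 in HNGMT against NGMT, 0 to 8 in HNGMT against HGMT, 2 to 5 in DMT against GMT, and 0 in NGMT against GMT and DMNT against DMT. Without DMT replicate 4 no DMNT value could be had. The causes were not tested. Over all genes, quantile normalization with the set term called 16 higher and 24 lower in HNGMT against HGMT, in place of 16 and 60.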
